A study of Mus musculus with 12 samples.

Results

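The thrombospondin family was followed through the stromal cells of arthritic mouse joints by its 5 genes, Thbs1, Thbs2, Thbs3, Thbs4 and Comp. The members were taken by their symbols, which matched 5 of the 27998 gene rows of the count matrices, and all 5 were detected. The measurements were single-cell RNA sequencing (scRNA-seq) counts of live CD45-negative cells, that is cells without the common marker of blood-derived immune cells, sorted from digested hind limb joints. All animals were WT male C57BL/6 mice aged 8 to 10 weeks. Arthritis was serum transfer-induced arthritis (STIA), a joint inflammation started by an intravenous injection of 100 µl of serum from K/BxN mice, which subsides without treatment. The 12 libraries carried 4 labels with 3 libraries each, namely rest (day 0, no serum), peak (days 7 to 9 after serum), resolving (day 15) and resolved (day 22). Each library pooled cells from the joints of 3 animals, so n counts pools. STIA needs no T or B cell response of the host, which limits it as a model to the effector phase of arthritis.

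Thrombospondins are secreted, calcium-binding glycoproteins of the extracellular matrix. Thbs1 and Thbs2 form trimers, carry thrombospondin type 1 repeats and restrain vessel growth through the receptors CD36 and CD47, and Thbs1 in addition activates latent TGF-beta. Thbs3, Thbs4 and COMP, the product of Comp, form pentamers, lack those repeats and bind collagens and other matrix proteins. COMP is a structural protein of cartilage and tendon, Thbs4 is known from tendon and muscle attachments, Thbs3 from the growing skeleton, and Thbs2 from collagen fibril assembly in skin and tendon.

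The deposited counts held 21042 cells, of which 20060 remained within the study's limits on genes and unique molecular identifiers (UMIs) per cell, a UMI being the tag that marks 1 captured RNA molecule. Kept cells per library ranged from 1227 to 2747 and their UMIs from 7468914 to 16566202. The median of 5358 UMIs per deposited cell was shared by all 12 libraries, and no barcode sequence was shared between any of the 66 pairs of libraries. The libraries did not resemble each other by label. In the summed fibroblast counts over 11739 genes, the nearest library had the same label for 0 of 12 libraries, whereas for 12 of 12 it lay in the same run of 3 consecutive numbers at the end of the cell barcodes. These runs are called run 1 (numbers 1 to 3: the libraries labelled rest 1, peak 1 and resolving 1), run 2 (4 to 6: resolved 1, rest 2 and peak 2), run 3 (7 to 9: resolving 2, resolved 2 and rest 3) and run 4 (10 to 12: peak 3, resolving 3 and resolved 3). What sets the runs apart is not given in the sources used here, and results that compare libraries are therefore given by run as well as by label.

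The cells fell into 25 clusters, named from marker genes, with the members and the partner genes described later kept out of the clustering. There were 11272 fibroblast-like cells in 10 clusters (56.2% of kept cells), 2349 tenocyte-like, 1768 vascular endothelial-like, 1349 osteoblast-like, 654 perivascular-like, 644 proliferating, 398 muscle-like, 308 chondrocyte-like, 186 lymphatic endothelial-like, 112 immune-like, 108 Schwann-like and 61 erythroid-like cells. These names rest on the markers alone and are shortened to fibroblast, tenocyte and so on. The immune class was led by the neutrophil genes Ngp and S100a8, with Ptprc, which encodes CD45, in 46.4% of its cells. One cluster of 851 cells, cluster 12, stayed unnamed. It carried 6 of the 7 fibroblast markers but was led by the cartilage gene Cytl1, with Npy and Clu. Chondrocytes gave sums of at least 10 cells in 8 libraries and in none of run 4, and proliferating cells in 6, so their values rest on fewer pools.

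The genes lie on 5 chromosomes of GRCm38 in the GENCODE M21 annotation. Thbs1 (ENSMUSG00000040152) occupies chr2:118111876-118127133 on the plus strand with 22 exons in the transcript with the most exons and overlaps the lincRNA gene Gm29233 on the other strand. Thbs2 (ENSMUSG00000023885) lies at chr17:14665500-14694235 on the minus strand with 22 exons, and Thbs4 (ENSMUSG00000021702) at chr13:92751590-92794818, likewise on the minus strand with 22. Thbs3 (ENSMUSG00000028047) lies at chr3:89215180-89226837 on the plus strand with 23 exons and overlaps Mtx1 on the other strand. Comp (ENSMUSG00000031849) is the shortest of the family at chr8:70373558-70382066, plus strand, with 19 exons. Whether the counting used strand is not given in the sources used here, so the part of Mtx1 or Gm29233 reads in the Thbs3 and Thbs1 counts was not tested.

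RefSeq promoter windows on GRCm38.p6 were at hand for 3 of the 5 members, and the 250 bases before each start are shown. In the fibroblast results that follow, Thbs2 and Thbs4 were higher and Thbs3 lower in run 2 than in run 1. A link between the letters and these differences was not tested. The strand read is that of the gene, 5′ to 3′, and capitals mark matches on either strand to the E-box CANNTG, the CCAAT box, the GC box GGGCGG or the TATA box TATAAA. The windows are chr17:14694263-14694512 (minus) for Thbs2, chr3:89214930-89215179 (plus) for Thbs3 and chr13:92794819-92795068 (minus) for Thbs4.
Thbs2: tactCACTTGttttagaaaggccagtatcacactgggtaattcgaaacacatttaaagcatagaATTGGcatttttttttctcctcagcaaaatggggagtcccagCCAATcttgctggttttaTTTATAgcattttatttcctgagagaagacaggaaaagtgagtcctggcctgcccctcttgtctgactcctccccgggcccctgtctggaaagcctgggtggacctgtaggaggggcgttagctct
Thbs3: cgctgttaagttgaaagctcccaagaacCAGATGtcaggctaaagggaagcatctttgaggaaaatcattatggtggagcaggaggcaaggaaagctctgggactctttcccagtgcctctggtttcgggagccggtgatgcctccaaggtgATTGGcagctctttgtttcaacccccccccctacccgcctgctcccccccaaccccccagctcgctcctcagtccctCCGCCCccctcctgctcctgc
Thbs4: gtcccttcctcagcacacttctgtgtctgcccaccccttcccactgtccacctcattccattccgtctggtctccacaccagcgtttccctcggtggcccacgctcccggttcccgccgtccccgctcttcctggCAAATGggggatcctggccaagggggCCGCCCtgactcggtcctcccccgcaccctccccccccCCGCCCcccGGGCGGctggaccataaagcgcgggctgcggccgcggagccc
Their GC content was 46.8% for Thbs2, 58.8% for Thbs3 and 70.8% for Thbs4, against a median of 52.4% over 32851 windows of the same length. Each of the 3 windows held 1 match to the E-box, which 66.2% of all windows hold. The GC box, found in 32.7% of windows, had 3 matches in Thbs4, 1 in Thbs3 and 0 in Thbs2. The CCAAT box (33.8% of windows) had 2 matches in Thbs2 and 1 in Thbs3, and the only TATA box (12.4% of windows) began 126 bases before the Thbs2 start. The AP-1 site TGANTCA, in 6.75% of windows, was in none of the 3. Such matches describe letters and are not binding sites.

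Together the family gave 412770 UMIs, 0.325% of the 126994745 UMIs of the kept cells. Comp was the most abundant member with 240530 UMIs, followed by Thbs4 with 102319, Thbs2 with 28093, Thbs3 with 21621 and Thbs1 with 20207. These are counts of captured 3′ ends, which need no correction for gene length, although the capture of an end can differ between genes. Fibroblasts, the largest class, held 59.9% of the Thbs1 UMIs, 60.9% of Thbs2, 70.03% of Thbs3 and 48.7% of Thbs4 but 36.4% of Comp. Chondrocytes held 12.1% of the Comp UMIs with 1.54% of the cells, and cluster 12 held 21.2% with 4.24% of the cells. Tenocytes held 35.2% of the Thbs4 UMIs and 21.7% of those of Comp, and perivascular cells 10.0% of the Thbs1 UMIs with 3.26% of the cells.

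**Figure D1:**
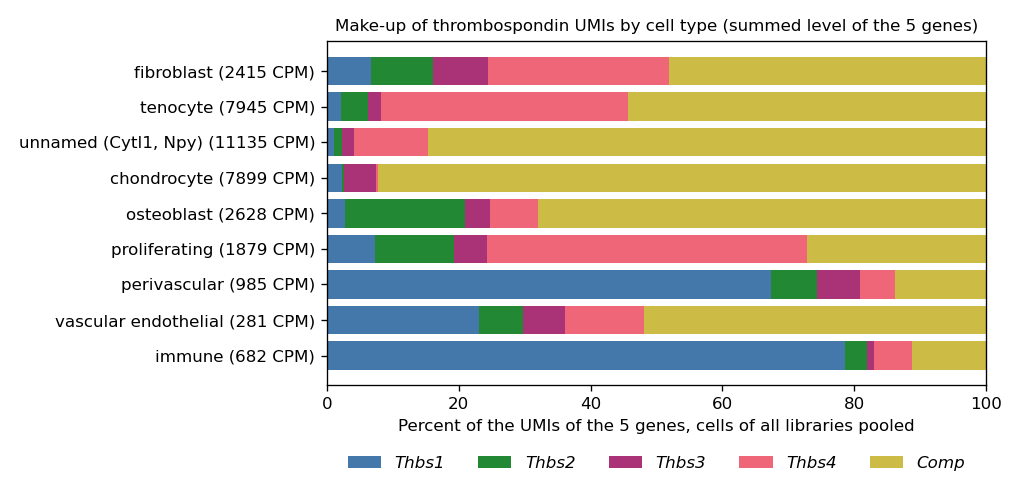
Share of each member in the summed CPM of the 5 members, in percent, for cell classes and for cluster 12. Muscle, lymphatic endothelial, Schwann and erythroid cells are not shown. Comp took 92.2% in chondrocytes and 54.3% in tenocytes, whereas Thbs1 took 67.4% in perivascular cells and 78.6% in immune cells.

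The makeup of the family differed by class. Levels are given as CPM, a gene's UMIs per 1000000 UMIs of the summed cells. In chondrocytes Comp made up 92.2% of the family's summed CPM of 7899 and Thbs3 was the next at 4.90%, with Thbs4 at 0.251% and Thbs2 at 0.321%. Tenocytes had a similar sum, 7945 CPM, but divided it between Comp (54.3%) and Thbs4 (37.5%). Fibroblasts had 2415 CPM, with 48.1% from Comp and 27.4% from Thbs4, and osteoblasts 2628 CPM, with 68.0% from Comp and 18.1% from Thbs2. In perivascular cells, which surround vessels, the sum was 985 CPM and Thbs1 was 67.4% of it. This class was led by the smooth muscle genes Myh11, Cnn1 and Actg2, and kinds of cells within it were not separated. Vascular endothelial cells had the low sum of 281 CPM.

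**Figure D2:**
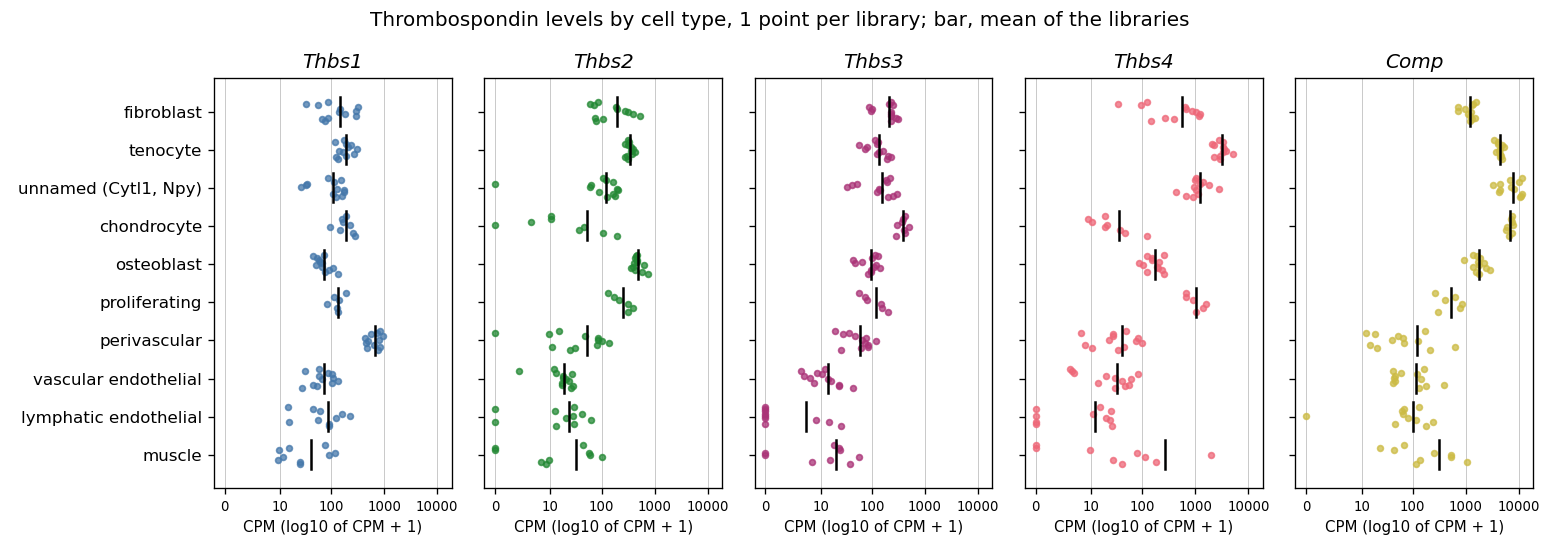
Level of each member as CPM of the summed UMIs of each library, on a log axis shared by the 5 panels. Shown are cluster 12 and the cell classes with sums in at least 6 libraries, so without immune, Schwann and erythroid cells. Each point is a library and each bar the mean. Comp was highest in cluster 12 and chondrocytes, Thbs4 in tenocytes, Thbs3 in chondrocytes, Thbs1 in perivascular cells and Thbs2 in osteoblasts.

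Each type was tested against fibroblasts in 1 model of all library sums with the library as a block (edgeR quasi-likelihood test, 10786 genes). A gene was called at a Benjamini-Hochberg adjusted p under 0.05 together with an absolute log2 fold change above 0.5. At this threshold many genes differ between cell types. The share of all genes called was 46.7% for chondrocytes, 44.6% for muscle, 52.8% for vascular and 37.7% for lymphatic endothelial cells, 39.2% for perivascular cells, 30.1% for osteoblasts, 26.6% for proliferating cells and 23.3% for tenocytes. Against that background, 5 of 5 members were called in chondrocytes, tenocytes, perivascular, muscle and both endothelial classes, 4 in osteoblasts and 2 in proliferating cells. The lymphatic call of Thbs1 was lost with scaling by total counts alone (-0.62, edgeR adjusted p = 0.13), and Thbs4 was called in proliferating cells in 3 alternatives (0.67 to 1.04).

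Comp, the cartilage pentamer, ranged in chondrocytes from 5819 to 7662 CPM with a median of 7199.5 over 8 libraries, and in fibroblasts from 726 to 1560.1 with a median of 1246 over 12. The lowest chondrocyte library was above the highest fibroblast library. The log2 fold change was 2.85 ± 0.31 (SE; edgeR adjusted p = 9.5e-14), a 7.21-fold difference, seen in 8 of 8 libraries. Tenocytes, the cells of tendons, had 3478 to 5161 CPM of Comp (median 4382) and also lay above all fibroblast libraries, by 1.92 ± 0.28 on the log2 scale (edgeR adjusted p = 1.1e-08). Osteoblasts, the bone-forming cells, overlapped with fibroblasts at 908 to 2919 CPM (median 1736). Their fitted difference of 0.47 ± 0.27 did not pass (edgeR adjusted p = 0.17), although the osteoblast level was higher in 11 of 12 libraries and the difference passed in 4 of the alternative processings (0.58 to 0.89). It was -0.0051 when cluster 12 was counted as fibroblasts.

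In the order of mean Comp levels, chondrocytes (6913 ± 732 CPM, SD, n = 8) lay above tenocytes (4344 ± 489, n = 12), these above osteoblasts (1798 ± 527), and osteoblasts above fibroblasts (1191 ± 267). Each step was larger than the spread between libraries by an exact paired permutation test of log2 levels, with adjusted p = 0.028, 0.0049 and 0.0078 over 40 neighbouring pairs of classes in the family. Proliferating cells followed at 538 ± 249.9 CPM and muscle at 308 ± 346. Proliferating cells were below the fibroblasts of the same libraries in 6 of 6, but the smallest p that 6 libraries allow in the exact permutation test, 0.03125, gave an adjusted value of 0.0625. Between proliferating cells and muscle 3 libraries were shared, too few for the test to pass. The lower neighbours, from muscle to lymphatic endothelial cells (98.9 ± 70.1), did not pass.

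Every kept chondrocyte had a UMI of Comp (100%, 95% Wilson interval 98.8 to 100%), as did 94.8% of tenocytes (93.9 to 95.7%) and 66.1% of fibroblasts (65.2 to 67.0%). These intervals cover counting error only. In vascular endothelial cells, which are not known to make COMP, 15.95% of cells had a UMI (14.3 to 17.7%) at a median depth of 3176 UMIs, and in erythroid cells 37.7% (26.6 to 50.3%) at 5778. Free RNA can give such UMIs in droplets. When each cell was thinned to 2000 UMIs the shares were 99.0% for chondrocytes, 91.5% for tenocytes, 52.2% for fibroblasts, 55.5% for osteoblasts, 9.51% for vascular endothelial and 16.4% for erythroid cells. The thinned Comp shares of perivascular (9.05%) and immune cells (9.43%) were below those of both vascular endothelial and erythroid cells. Muscle (11.02%), Schwann (10.99%) and lymphatic endothelial cells (15.6%) lay between these references, of which the erythroid one had 61 cells before thinning. The part of free RNA in these shares was not tested.

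Thbs4, the tendon pentamer, ranged in tenocytes from 2032 to 5185 CPM (median 3145) and in fibroblasts from 34.7 to 1208 (median 519.9). All 12 tenocyte sums were above all fibroblast sums, with a log2 fold change of 2.98 ± 0.32, or 7.87-fold (edgeR adjusted p = 3.1e-13). The size of the difference varied by run. Mean levels in tenocytes and fibroblasts were 2722 and 84.2 CPM in run 1, and 4109 and 1132 in run 3. Chondrocytes had 8.40 to 122 CPM (median 19.7), lower than the fibroblasts of the same library in 8 of 8 libraries, by -3.86 ± 0.49 on the log2 scale or 14.5-fold (edgeR adjusted p = 4.4e-11). Chondrocytes and tenocytes thus both stood above fibroblasts in Comp and on opposite sides of them in Thbs4. Osteoblasts had less Thbs4 than fibroblasts (174 ± 59.6 CPM, log2 fold change -1.25 ± 0.32, edgeR adjusted p = 0.00085), and 8 of 12 libraries showed that direction. This call was lost with cells under 10% mitochondrial UMIs (-0.71, edgeR adjusted p = 0.073). In run 1 osteoblasts were higher, at 125 to 258 CPM against 34.7 to 123 in fibroblasts. In run 3 they were lower, at 104 to 198 against 1017 to 1208.

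Proliferating cells had a mean Thbs4 level of 1035 ± 369 CPM in 6 libraries, all of runs 2 and 3. The fibroblasts of the same libraries had 931 CPM, and proliferating cells were higher in 4 of 6. Their level was below that of tenocytes in 6 of 6, but with 6 libraries the smallest p of the exact permutation test is 0.03125, and its adjusted value was 0.0625. The Thbs4 steps from fibroblasts to muscle and from osteoblasts to perivascular cells passed (exact permutation test, adjusted p = 0.028 and 0.0049). The place of muscle above osteoblasts rested on the library resolved 2, with 2014 CPM from 11 cells. Without it the muscle mean was 56.2 ± 63.7 CPM (n = 8) in place of 274, below the 174 of osteoblasts, and muscle was above osteoblasts in 2 of 9 libraries. The share of cells with a Thbs4 UMI was 79.1% in tenocytes (77.5 to 80.7%), 41.8% in fibroblasts, 16.6% in chondrocytes (12.8 to 21.1%), 6.00% in vascular endothelial cells and 16.4% in erythroid cells. With 2000 UMIs per cell it was 72.2% in tenocytes and 31.4% in fibroblasts. The 3.25% of chondrocytes lay between 3.00% in vascular endothelial and 9.84% in erythroid cells, and the part of free RNA in it was not tested. Both Thbs4 and Comp were detected in 74.9% of tenocytes and 33.0% of fibroblasts.

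Thbs3, the pentamer of the skeleton, was at 290.3 to 497 CPM in chondrocytes (median 398) and at 89.5 to 304 in fibroblasts (median 227). Chondrocytes were higher in 8 of 8 libraries, by 1.26 ± 0.17 on the log2 scale or 2.40-fold (edgeR adjusted p = 2.5e-10), with a small overlap of the ranges. Fibroblasts in turn had more Thbs3 than tenocytes (135 ± 53.5 CPM) in 12 of 12 libraries and more than osteoblasts (95.5 ± 31.0) in 12 of 12, with log2 fold changes of -0.58 ± 0.14 for tenocytes (edgeR adjusted p = 0.0007) and -1.17 ± 0.15 for osteoblasts (edgeR adjusted p = 1.2e-10). The tenocyte call for Thbs3 depended on the clustering, with -0.23 for cells under 10% mitochondrial UMIs, -0.42 at a coarser resolution and -0.031 when members and partners took part in it. In the exact permutation test both upper steps, chondrocyte over fibroblast and fibroblast over tenocyte, passed (adjusted p = 0.028 and 0.0049). Of all members Thbs3 was the one with the lowest level in vascular (14.3 ± 11.4 CPM) and lymphatic endothelial cells (4.84 ± 8.87). Thbs3 UMIs were found in 93.2% of chondrocytes and 59.1% of fibroblasts, in 54.5% and 30.7% of cells thinned to 2000 UMIs, and in 4.02% of vascular endothelial cells (1.85% thinned).

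Thbs1, the TGF-beta activator, did not follow the skeletal classes. It was at 444 to 958 CPM in perivascular cells (median 696) and at 32.9 to 321 in fibroblasts (median 116), with no overlap. The log2 fold change was 2.11 ± 0.20, or 4.32-fold (edgeR adjusted p = 3.0e-16), in 12 of 12 libraries, while the other 4 members were lower in perivascular cells in 12 of 12. The 3 libraries with enough immune cells had 296, 615 and 675 CPM of Thbs1, untested because of their number. Perivascular cells exceeded chondrocytes (191 ± 63.1 CPM) in 8 of 8 libraries (exact permutation test, adjusted p = 0.028). The steps from chondrocytes to tenocytes (188 ± 57.7) and from these to fibroblasts (149 ± 102) did not pass in that test. Proliferating cells (132 ± 34.3) were below the fibroblasts of the same libraries (230 CPM) in 6 of 6, where the adjusted p of 0.0625 comes from the smallest p that 6 libraries allow in the exact permutation test. In the model, chondrocytes were above fibroblasts by 0.73 ± 0.24 (edgeR adjusted p = 0.0067), in 5 of 8 libraries, and the call was lost without the library block (0.46, edgeR adjusted p = 0.17). The value of tenocytes, 0.50 ± 0.19 (edgeR adjusted p = 0.034), lay on the fold threshold. It was lost in 6 alternatives (0.23 to 0.49) and in 6 of the 12 fits without 1 library, those without rest 1, peak 1, peak 3, resolving 1, resolving 3 or resolved 3 (0.42 to 0.49).

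Cells with a Thbs1 UMI made up 65.3% of perivascular cells (61.6 to 68.8%) and 45.5% of immune cells (36.6 to 54.8%) at median depths of 3882.5 and 3719.5 UMIs. The 68.5% of chondrocytes was reached at a median of 12564 UMIs and was 27.9% after thinning to 2000 UMIs, against 53.2% of perivascular, 37.7% of immune and 15.2% of fibroblast cells. Vascular endothelial cells had a Thbs1 UMI in 11.8% of cells and erythroid cells in 8.20% (6.26% and 3.28% thinned). The vascular cells were not uniform, with 26.1% and 114 CPM in the cluster led by Selp, Fam167b and Plvap and 3.71% and 18.6 CPM in the one led by Timp4, Aqp7 and Car4. Platelets carry Thbs1 protein. Of their markers, Pf4 had a UMI in 38, Ppbp in 17, Gp9 in 4 and Itga2b in 1475 of 11272 fibroblasts. Over all kept cells Pf4 had 356 UMIs, and cells of the other classes with these markers were not counted. The part of platelet RNA in the Thbs1 counts was not tested.

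Thbs2, the trimer tied to collagen fibrils, was at 357 to 738 CPM in osteoblasts (median 456) and at 60.3 to 541 in fibroblasts (median 146). The ranges overlapped, yet the osteoblasts were higher in 11 of 12 libraries, with a log2 fold change of 1.55 ± 0.21 or 2.92-fold (edgeR adjusted p = 1.6e-09). Tenocytes, at 338 ± 44.5 CPM, exceeded fibroblasts as well (1.11 ± 0.21, edgeR adjusted p = 9.2e-06), also in 11 of 12. The size of both differences varied by run. The mean of fibroblasts was 72.3 CPM in run 1 and 415 in run 3. Osteoblasts had 444 and 460 in these runs, and tenocytes 306 and 386. Osteoblasts lay above tenocytes in 10 of 12 libraries (exact permutation test, adjusted p = 0.020). Chondrocytes had a low Thbs2 level (51.6 ± 68.7 CPM), 4.55-fold under fibroblasts (edgeR adjusted p = 2.9e-08), and perivascular cells 52.5 ± 44.4. Thbs2 UMIs were in 62.3% of osteoblasts (43.2% thinned), 62.8% of tenocytes (40.9%), 46.8% of fibroblasts (25.7%), 15.3% of chondrocytes (4.87%) and 6.22% of vascular endothelial cells (3.51%).

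Cluster 12, the unnamed cells led by Cytl1, had the highest mean Comp level, 7747 ± 3138 CPM, with a wide range from 3198 to 11672 (median 7536) over 12 libraries. By run its mean Comp level was 9520, 4911, 5561 and 10994 CPM in runs 1 to 4, untested. Comp was above fibroblasts in 12 of 12 by 2.62 ± 0.28 on the log2 scale (edgeR adjusted p = 1.2e-13) and was 6971 CPM against 6913 in the 8 libraries that also had chondrocytes. There it was higher in 4 and lower in 4, with a fitted difference of -0.26 ± 0.31 (edgeR adjusted p = 0.52). The members other than Comp set both apart. Thbs4 was 1408 CPM in cluster 12 and 35.3 in chondrocytes, a 43.5-fold difference (log2 5.44 ± 0.47, edgeR adjusted p = 3.8e-18), Thbs2 was higher by 1.83 ± 0.36, and Thbs3 and Thbs1 were lower by -1.67 ± 0.19 and -0.94 ± 0.25 (edgeR adjusted p at most 0.001). Of all genes, 25.1% were called for cluster 12 against fibroblasts and 38.9% against chondrocytes, and of the members 2 of 5 (Thbs4 at 1.45 ± 0.32 and Comp) and 4 of 5. This comparison was chosen after the values were seen.

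The tenocytes were made of clusters 3 (1393 cells, led by Ptx4, S100a5 and Angptl7 apart from gene models) and 10 (956 cells, led by Nppc and Egfl6). Thbs4 ranged from 3030.1 to 7432 CPM in cluster 3 (median 4866) and from 567 to 1411 in cluster 10 (median 1047), without overlap. The log2 fold change was 2.39 ± 0.14, or 5.26-fold (edgeR adjusted p = 6.2e-12), in 12 of 12 libraries. Comp, at 4878 ± 494 and 3793 ± 921 CPM, differed by 0.58 ± 0.09 in 10 of 12 (edgeR adjusted p = 1.9e-05). Thbs1 was higher in cluster 3 in 12 of 12 libraries (247 ± 87.7 against 117 ± 45.6 CPM) and Thbs3 in 9 of 12 (log2 1.25 ± 0.13 and 0.81 ± 0.16), while Thbs2, at 0.27 ± 0.12, did not pass (edgeR adjusted p = 0.093). With 22.3% of 6147 genes called between these clusters, 4 of 5 members were.

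**Figure D3:**
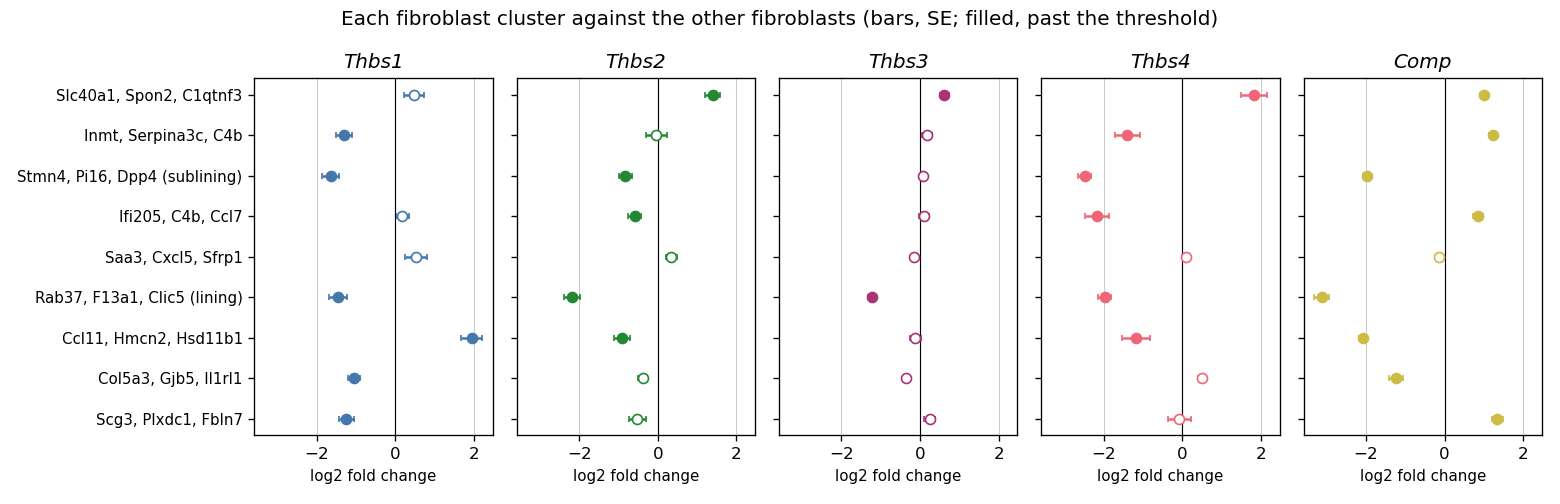
Log2 fold change of each member (1 panel each, bars the SE) in 9 fibroblast clusters, named by their leading genes, against the other fibroblasts, with filled points past the threshold. Comp ran from -3.13 in the lining cluster to 1.34 in the cluster led by Scg3, and Thbs1 was 1.94 in the cluster led by Ccl11.

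Among fibroblasts, each of 9 clusters was compared with all other fibroblasts of the same library. Comp was called in 8 of them, Thbs1 and Thbs4 in 6, Thbs2 in 5 and Thbs3 in 2. The lining cluster 8, led by Rab37, F13a1 and Clic5 and marked by Prg4, which encodes lubricin, was lower in 5 of 5 members. Its Comp level of 37.5 to 413 CPM (median 158) was below that of the other fibroblasts in 12 of 12 libraries, by -3.13 ± 0.19 on the log2 scale or 8.75-fold (edgeR adjusted p = 8.5e-12). Its differences were -2.17 ± 0.20 for Thbs2, -1.97 ± 0.17 for Thbs4, -1.46 ± 0.23 for Thbs1 and -1.23 ± 0.09 for Thbs3, and 31.3% of all genes were called. The sublining cluster 2, led by Stmn4, Pi16 and Dpp4, had 4 of 5 called with 16.3% of all genes. It was lower in Thbs4 (-2.48 ± 0.16), Comp (-1.97 ± 0.11), Thbs1 (-1.65 ± 0.22) and Thbs2 (-0.82 ± 0.16) in 12 of 12 libraries each. Its Thbs3 level was 226 ± 64.0 CPM and the difference of 0.08 ± 0.08 did not pass (edgeR adjusted p = 0.56).

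Clusters high in Comp were of more than one kind. Cluster 13 (Scg3, Plxdc1, Fbln7) reached 3092 ± 939 CPM (n = 11), above the other fibroblasts in 11 of 11 libraries by 1.34 ± 0.14 (edgeR adjusted p = 2.9e-08), with Thbs1 lower by -1.25 ± 0.19, as 2 of 5 members against 7.79% of all genes. Cluster 1 (Inmt, Serpina3c, C4b) had 2339 ± 439.9 CPM, higher in 12 of 12 by 1.23 ± 0.10, together with lower Thbs4 (-1.40 ± 0.31) and Thbs1 (-1.31 ± 0.20), 3 of 5 against 17.3%. Cluster 5 (Ifi205, C4b, Ccl7) had 1754 ± 424 CPM of Comp, higher in 11 of 12 by 0.85 ± 0.12, with Thbs4 at 95.2 ± 82.9 CPM, lower by -2.17 ± 0.30, and Thbs2 lower by -0.59 ± 0.17, 3 of 5 against 28.3%. The Thbs2 call of cluster 5 was lost without the library rest 3 (-0.45) and without the library block (-0.83, edgeR adjusted p = 0.068). Clusters 1 and 5 thus had more Comp and less Thbs4 than the other fibroblasts in the model, with Thbs4 lower in 9 of 12 libraries for cluster 1 and in 11 of 12 for cluster 5. The other fibroblasts differ by run, as clusters 0, 6 and 11 had 4, 0 and 9 cells in run 1. There the mean Thbs4 level was 97.0 CPM in cluster 1 and 77.2 in cluster 5, against 84.2 in all fibroblasts.

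Cluster 0 (Slc40a1, Spon2, C1qtnf3) instead held both pentamers. Its Thbs4 level of 1458 to 3651 CPM (median 1685) exceeded that of the other fibroblasts in 8 of 8 libraries by 1.83 ± 0.33 (edgeR adjusted p = 0.00052), Comp by 1.01 ± 0.11 and Thbs2 by 1.40 ± 0.20. Thbs3 was higher by 0.61 ± 0.11 (edgeR adjusted p = 0.00063), a call that was lost after thinning (0.38) and without the library block (0.72, edgeR adjusted p = 0.16). Thus 4 of 5 members were called against 13.6% of all genes. Of its 1720 cells, 1582 came from run 3, so the cluster is largely that of 3 libraries.

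Cluster 9 (Ccl11, Hmcn2, Hsd11b1) was the only one of the 9 in which Thbs1 was called higher in the reported fit. The mean was also above the other fibroblasts in cluster 0 (218 against 162 CPM, higher in 5 of 8 libraries) and cluster 6 (246 against 179, 4 of 6). Cluster 9 had 195 to 585 CPM of Thbs1 (median 381). This was above the other fibroblasts in 11 of 12 libraries by 1.94 ± 0.26 or 3.84-fold (edgeR adjusted p = 5.9e-06). Comp (-2.08 ± 0.11) was lower in 12 of 12 libraries, Thbs2 (-0.91 ± 0.20) in 11 and Thbs4 (-1.17 ± 0.36) in 9. In run 1 the mean Thbs4 level of cluster 9 was 161 CPM against 84.2 in all fibroblasts. The Thbs4 value (edgeR adjusted p = 0.022) did not pass without any 1 of 6 libraries, namely rest 2, rest 3, peak 2, resolving 2, resolving 3 or resolved 1 (-1.06 to -1.01). Here 4 of 5 members were called against 14.4%. Cluster 11 (Col5a3, Gjb5, Il1rl1) was lower in Comp (-1.24 ± 0.17) and Thbs1 (-1.05 ± 0.15), 2 of 5 against 17.9%, and its Thbs4 level, higher in 6 of 6 libraries, differed by 0.49 ± 0.09, just under the fold threshold. It passed in 5 alternatives (0.51 to 0.60) and without rest 3, resolving 2 or resolved 2 (0.51 to 0.61). Cluster 6 (Saa3, Cxcl5, Sfrp1), with 1057 of 1226 cells from run 2, had 0 of 5 called against 14.3% of all genes. Its values ran from -0.16 for Thbs3 to 0.52 for Thbs1, and 3 members, Thbs1, Thbs2 and Thbs4, were called after thinning. Without the library rest 3, Thbs1 (0.81) and Thbs2 (0.52) were called as well. Cluster 17, with 467 of 512 cells from run 3, was present in 4 libraries and was not tested.

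**Figure D4:**
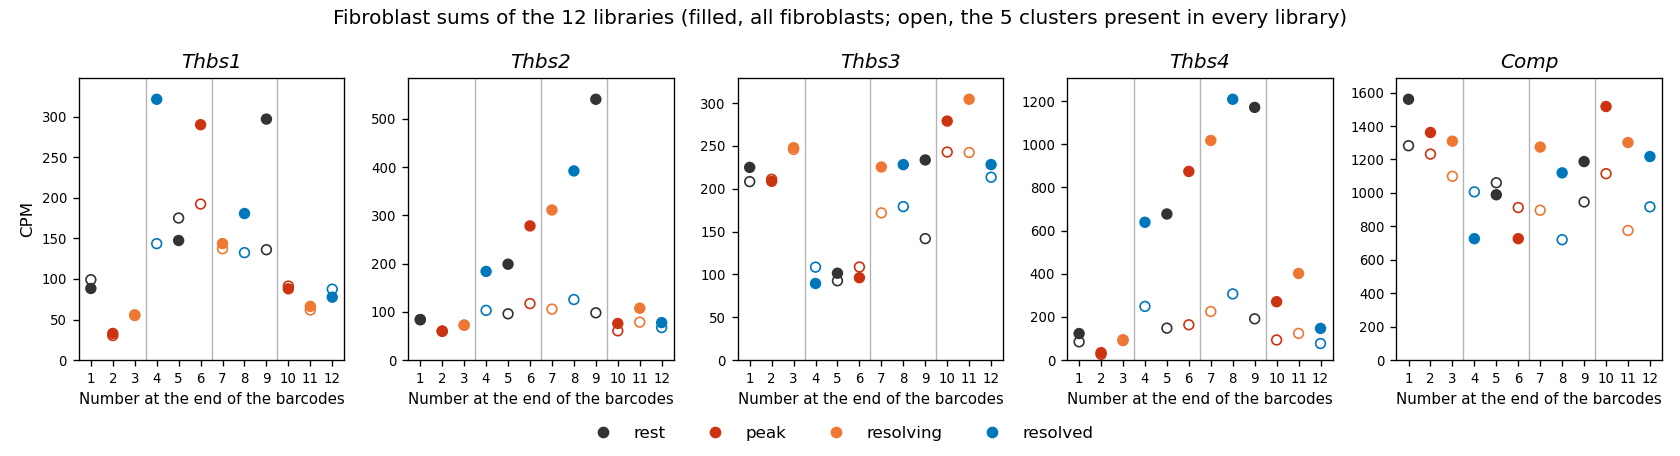
CPM of each member in the summed fibroblasts of each library, ordered by the number at the end of its cell barcodes, with labels shown by colour. Libraries with neighbouring numbers lie together and the colours are mixed, as for Thbs4 at 34.7 to 123 in run 1 and 1017 to 1208 in run 3.

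Between runs the fibroblasts differed widely. In the test of any difference among the 4 runs, 58.7% of 11744 genes were called at an adjusted p under 0.05, and 5 of 5 members were among them. Thbs4 was 123, 34.7 and 94.8 CPM in the libraries rest 1, peak 1 and resolving 1 of run 1, and 1017, 1208 and 1170.5 in resolving 2, resolved 2 and rest 3 of run 3. The runs did not overlap, and run 3 was higher by 3.78 ± 0.38 on the log2 scale or 13.7-fold (edgeR adjusted p = 5.8e-06). Run 2 (638, 677 and 874 CPM) was higher than run 1 by 3.19 ± 0.37 and run 4 (270.5, 401 and 147) by 1.77 ± 0.36 (edgeR adjusted p = 1.3e-05 and 0.024).

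Thbs2 took a similar order, with 72.3 ± 11.9 CPM in run 1, 220.3 ± 50.7 in run 2, 415 ± 116 in run 3 and 87.1 ± 17.8 in run 4 (SD, n = 3 each). The differences from run 1 were 1.67 ± 0.20 for run 2 and 2.53 ± 0.21 for run 3 (edgeR adjusted p = 1.9e-05 and 1.2e-06). Thbs1 was 59.0 ± 27.8, 253 ± 92.7, 207 ± 80.0 and 77.2 ± 10.8 CPM in runs 1 to 4, with differences of 2.16 ± 0.34 and 1.83 ± 0.34 for runs 2 and 3. Comp was lower in run 2 (814 ± 152 CPM) than in run 1 (1410.4 ± 132) by -0.73 ± 0.14 (edgeR adjusted p = 0.00089). Its difference in run 3, -0.22 ± 0.14, did not pass. In all, 5 of 5 members were called for run 2, 3 for run 3 and 1 for run 4, where 35.1%, 26.6% and 1.63% of all genes were.

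The runs also held different cells. Clusters 0, 6, 11 and 17, with 4346 fibroblasts in all, had 24 of them in run 1. Over clusters 1, 2, 5, 8 and 9 alone, each with at least 10 cells in every library, 17.1% of 10324 genes differed between runs, and 4 of 5 members did. Thbs4 was 67.4 ± 34.9 CPM in run 1, 187 ± 54.2 in run 2, 241 ± 59.3 in run 3 and 98.1 ± 23.8 in run 4 (edgeR adjusted p = 0.0019 for any difference). The difference of Thbs4 in run 3 was thus 1.87 in these clusters against 3.78 in all fibroblasts, and Thbs2 gave 0.62 against 2.53. Thbs1 differed as well (edgeR adjusted p = 0.0041), whereas Comp did not pass (edgeR adjusted p = 0.12). The shares of all genes called were 8.73% for run 2, 5.87% for run 3 and 1.29% for run 4. This restriction was chosen after the data were seen.

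**Figure D5:**
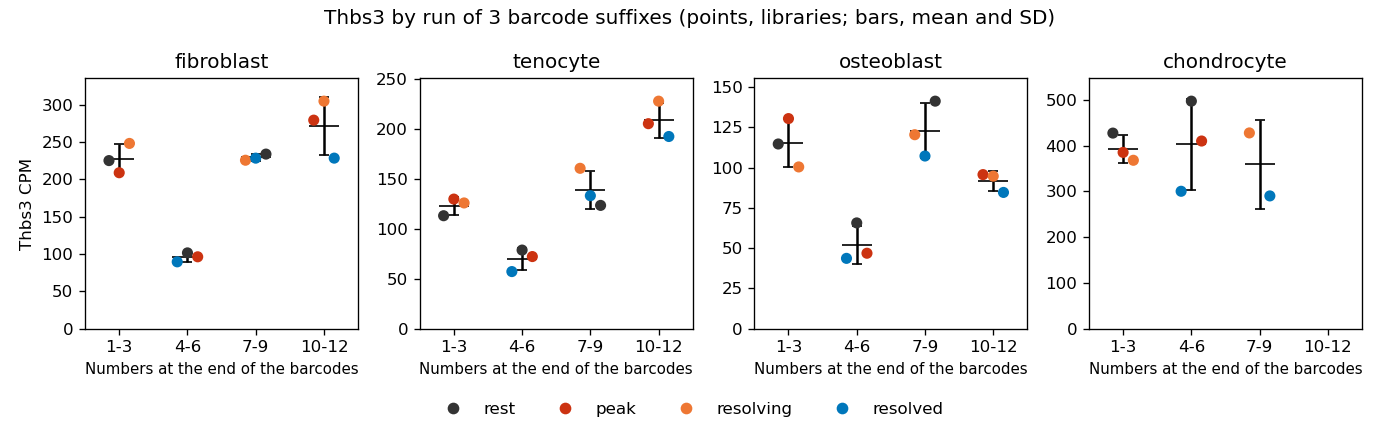
CPM of Thbs3 by run in fibroblasts, tenocytes, osteoblasts and chondrocytes, each point a library and each bar the mean. Run 2 was lowest in fibroblasts (95.7), tenocytes (69.4) and osteoblasts (52.1), but not in chondrocytes (403).

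Comp in all fibroblasts was lowest in run 2, at 726 to 989 CPM against 1120 to 1560 in the other runs. In the shared clusters its means were 1205, 993, 854 and 936 CPM in runs 1 to 4, so run 2 was not lowest there. Thbs3 was lowest in run 2 in both sets, with 222, 103, 164 and 233 CPM in the shared clusters. In fibroblasts the 3 libraries of run 2 had 89.5, 101 and 96.2 CPM, those of run 1 had 225, 209 and 248, those of run 3 225, 228 and 234, and those of run 4 279, 304 and 228. Run 2 overlapped with none of the others, and its difference from run 1 was -1.19 ± 0.10, or 2.28-fold lower (edgeR adjusted p = 1.0e-06). In the shared clusters the difference was -1.05. Tenocytes showed the same, at 69.4 ± 11.1 CPM in run 2 against 123 ± 8.72 in run 1 (-0.72 ± 0.16, edgeR adjusted p = 0.026), and so did osteoblasts at 52.1 ± 11.9 against 115 ± 15.0 (-1.07 ± 0.21, edgeR adjusted p = 0.020). It was the one member called between runs in these 2 classes, where 5.69% of 7186 and 2.81% of 6271 genes were called for any difference, and 2.09% and 0.957% for run 2. Thbs3 in tenocytes was also higher in run 4 (209 ± 17.9 CPM, 0.90 ± 0.13, edgeR adjusted p = 0.0013, 1.84% of genes called).

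In cluster 12 the mean Thbs3 level was 198, 42.0, 132 and 247.5 CPM in runs 1 to 4, untested. Run 2 was also lowest there for Comp, Thbs1 (118, 31.3, 160 and 131 CPM) and Thbs2 (131, 40.9, 163 and 157). It was not lowest for Thbs4, at 1324 CPM in run 2 and 904 in run 4.

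Not all classes shared the low level of run 2. Chondrocytes had 394 ± 30.6 CPM of Thbs3 in run 1, 403 ± 98.7 in run 2 (n = 3 each) and 359 ± 97.4 in run 3 (n = 2), and were not tested by run. In perivascular cells Thbs3 was higher in run 3 than in run 1 (92.3 ± 24.3 against 28.1 ± 8.63 CPM, 1.61 ± 0.44, edgeR adjusted p = 0.016), as was Thbs2 in runs 2 and 3 (72.7 ± 21.2 and 107 ± 28.1 against 7.997 ± 7.45 CPM). For any difference Thbs2 and Comp passed there (edgeR adjusted p = 0.0003 and 0.015), and 25.9% of 3195 genes did, with 20.8% for run 2 and 18.1% for run 3. The thinned share of these cells with Comp was below those of vascular endothelial and erythroid cells. The mean Comp level of 282 CPM in run 4 was carried by the library peak 3 at 617, without which it was 115 (n = 2). In vascular endothelial cells 25.4% of 6936 genes and 4 of 5 members passed for any difference (all but Thbs2), at low levels. Thbs4 was 3.81 ± 0.424 CPM there in run 1 and 38.6 to 44.0 on average in the others, and Comp was 233 ± 136 in run 4 and 70.7 to 88.4 in the others. Immediate early and dissociation genes summed to 22157 to 28441 CPM in the fibroblasts of run 1, 16374 to 17576 in run 2, 18604 to 20862 in run 3 and 21857 to 30143 in run 4. Their part in the run differences was not tested.

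The disease stage labels showed no such separation. Libraries are named here as deposited, and whether each one carries the label of its own stage was not tested. The nearest library in fibroblasts had the same run for 12 of 12 and the same label for 0 of 12, so the following values describe libraries by label and do not show that the stages were alike. In fibroblasts 0 of 11744 genes were called for peak, resolving or resolved against rest (0% each) by the edgeR quasi-likelihood test, with 85, 88 and 40 genes at an unadjusted p under 0.05, and 0 by DESeq2, with 74, 73 and 28. Thbs4 was 657 ± 524 CPM in libraries labelled rest, 393 ± 433 in peak, 505 ± 470 in resolving and 664.5 ± 531 in resolved (SD, n = 3). Thbs1 was 177 ± 108, 137 ± 135, 88.5 ± 47.9 and 193 ± 122 CPM, and Thbs2 274.5 ± 237, 138 ± 121, 164 ± 129 and 218 ± 160. Thbs3 was 187 ± 73.9, 195 ± 92.2, 259 ± 40.7 and 182 ± 80.1 CPM, and Comp 1246 ± 289.9, 1202 ± 419, 1295 ± 18.4 and 1021 ± 260.2. The ranges of each later label overlapped with rest for every member. The largest fitted change, -1.001 ± 0.76 for Thbs1 at resolving, had an edgeR adjusted p of 1.0, as did all the others after rounding. The standard errors of 0.30 for Comp to 1.15 for Thbs4 in this fit hold the differences between runs. With the run as a block the 15 changes were -0.53 to 0.061 on the log2 scale with standard errors of 0.10 to 0.38, and none passed.

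The class with the highest level of each member was examined by label too. In chondrocytes, osteoblasts, perivascular cells and tenocytes 0 of 3428, 6271, 3195 and 7186 genes were called for any later label (0%, edgeR quasi-likelihood test, with 41 to 190 genes at an unadjusted p under 0.05). DESeq2 called 1 gene in 1 of these 12 comparisons, resolved against rest in chondrocytes. Thbs4 in tenocytes, Thbs1 in perivascular cells and Thbs2 in osteoblasts overlapped with rest at every label. Thbs3 in chondrocytes was at 428 to 497 CPM at rest, 385 to 410 at peak, 368 to 428 at resolving and 290.3 to 300 at resolved. With 2 libraries in each, neither peak nor resolved passed against rest (edgeR adjusted p = 0.9998 for each). Ranges of 2 libraries separate easily, and the share of all genes doing so was not counted.

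The genes known to act with thrombospondins were described from 4 lists, 14 receptors and surface partners, 8 proteases that cut thrombospondins, 6 TGF-beta genes and 9 matrix partners of COMP. In chondrocytes 6 of 9 matrix partners were higher than in fibroblasts and 2 lower, with a median log2 fold change of 9.40 against -0.16 over all genes. Of this list Col9a1, Col9a2, Col9a3 and Matn3 were among the leading genes of the chondrocyte cluster itself, so a high median follows from the cell type. The cartilage collagen genes Col9a3 (10.12) and Col9a2 (9.91) and the matrilin Matn1 (9.75) led, and the latent TGF-beta binding protein Ltbp1 (-4.30), Col1a1 (-2.91) and the protease Mmp19 (-2.58) were at the other end. Of the other lists in chondrocytes, 2 of 6 TGF-beta genes, 0 of 6 tested proteases and 2 of 12 tested receptors and surface partners were higher, and 4, 3 and 6 lower, where 2083 of all 10786 genes were higher and 2949 lower. In tenocytes 2 of 9 matrix partners were higher and 1 lower (median 0.40, all genes -0.044), where 1230 of all 10786 genes were higher and 1282 lower. There the integrin Itga4 (2.23 ± 0.57), Matn3 (1.94 ± 0.29) and Tgfb3 (1.58 ± 0.14) were higher, and fibronectin, Fn1 (-2.34 ± 0.28), Mmp19 (-1.45) and the lipoprotein receptor Vldlr (-1.45) lower.

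Perivascular cells had 6 of 12 tested receptors and surface partners higher and 5 lower (median 0.19, all genes -0.13), where 1767 of all 10786 genes were higher and 2457 lower, with Itga4 (5.47 ± 0.47) and Itga3 (3.16 ± 0.46) among the former. The protease Adamts4 was higher by 4.71 ± 0.22, and Mmp3 (-4.29), Fn1 (-3.88) and Mmp13 (-3.80) were lower. In vascular endothelial cells the thrombospondin receptor Cd36 was higher by 7.47, Itga3 by 3.99 and Adamts4 by 2.39, with 8 of 9 matrix partners lower and 0 higher, where 2831 of all genes were lower and 2861 higher. Osteoblasts had more of the collagenase Mmp13 (4.91), of Mmp9 (3.61) and of Itga4 (2.25), and less Fn1 (-2.48), Mmp3 (-2.29) and Mmp19 (-1.94).

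Among fibroblasts, cluster 0 had 7 of 8 tested matrix partners of COMP higher and 1 lower (median 1.56, all genes -0.047), where 681 of all 11917 genes were higher and 935 lower. Matn3 (2.32), Col9a3 (1.65) and Matn4 (1.58) led. The lining cluster 8 had 5 of 12 receptors higher and 0 lower (median 0.28, all genes -0.042), where 1411 of all 11214 genes were higher and 2095 lower. There Matn4 (3.02) and the reelin receptors Lrp8 (2.76) and Vldlr (2.35) were higher, and Mmp13 (-3.50), Col1a2 (-3.24) and Col1a1 (-3.02) lower. Between runs 4 of 7 tested proteases were higher in run 2 and 5 of 7 in run 3 than in run 1, and 0 lower. Of all 11744 genes, 2006 were higher and 2118 lower in run 2, and 1680 and 1440 in run 3. Mmp3 was at 2.92 and 2.12 in these runs and Mmp13 at 2.71 in run 3. The median of the proteases was 1.40 in run 2 and 1.01 in run 3, where the median over all genes was -0.016 and 0.0028.

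Genes with the most similar pattern were sought over 21 groups, the named classes and the fibroblast clusters, by Pearson's r of mean log2(CPM + 1) among 7783 genes. The groups share libraries and fibroblast clusters are parts of 1 class, so r is a description. Thbs2 was closest to the genes of type I collagen, Col1a1 (r = 0.97) and Col1a2 (0.94), and to the collagen-binding integrin Itga11 (0.94). Thbs3 was closest to Ccdc80 (0.94) and the type VI collagen genes Col6a2 (0.93) and Col6a1 (0.92). Thbs4 was closest to Lox (0.90), which encodes the collagen cross-linking lysyl oxidase, Ltbp2 (0.88) and Crabp2 (0.88), and Comp to Clec11a (0.88), Aff3 (0.87) and Olfml3 (0.82). Thbs1 had the weakest neighbours, Snapc1 (0.80), Gla (0.77) and Rexo4 (0.76). Within the family Thbs4 and Thbs2 were the most alike (0.89), followed by Comp and Thbs3 (0.72), while Thbs1 had r of -0.09 to 0.13 with the other 4.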

How the data were processed

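Live CD45-negative joint cells of 12 libraries were measured on the 10x Chromium 3′ platform. Per the labels, reads were aligned to mm10 with Cell Ranger, and the authors deposited raw UMI counts per gene and cell, filtered to called cells. Why all libraries have the same median depth is not given in the sources used here. Cells had over 500 and under 5000 genes and over 500 UMIs, with the study's upper UMI limits.

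Cells were clustered with scanpy 1.11.5 (2000 variable genes, 30 components, 20 neighbours, Leiden resolution 1, seed 1), without the members and partner genes, and named from markers. Doublets were not removed in the main analysis. Counts were summed per library and class or cluster (at least 10 cells) and tested with edgeR 4.0.16 (TMM, filterByExpr, quasi-likelihood test) in R 4.3.3, with the library as a block between cell groups. Calls needed an adjusted p under 0.05 and an absolute log2 fold change over 0.5. Thinned shares used 2000 UMIs per cell and left out 554 shallower cells. Alternatives were DESeq2 1.42.0, RLE factors, no low-count filter, other cell filters and clusterings, and each library left out. Statistical scripts were tested on simulated data. Of the 27998 gene identifiers in the counts, 27645 were in the annotation used for positions.

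The members and lists were chosen with earlier results of these data known. Genes named are the 5 members, up to 3 partner genes each way per comparison among those called, the 3 most similar genes per member, the leading genes of clusters and defining markers. Where nothing says that libraries came from separate experiments, p-values measure the spread between these pools of animals.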

Additional observations from a re-analysis of the deposited data

Results flagged for a closer look

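In 40 groups of 4 to 10 libraries, 6 had a library far from the others, and chance gives this in about 1 of 20 groups. For Thbs4 the library resolved 2 stood apart in chondrocytes, with 122 CPM from 17 cells (8 libraries), and in muscle, with 2014 CPM from 11 cells (9 libraries). For Comp, resolving 3 stood apart in muscle with 1069 CPM from 44 cells (9 libraries). Among the fibroblasts Comp reached 3927 CPM in peak 3 of cluster 0 (8 libraries) and 1279 CPM in resolving 2 of cluster 11 (6 libraries), and was 391 CPM in resolved 2 of cluster 17 (4 libraries). Differences of effects between labels were not tested.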

How the results depend on the processing

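Of the members' differences outside the fits without 1 library, 1133 kept direction and side of the threshold, 45 changed sign, 16 were lost and 16 gained. None of those that changed sign was called in the reported fit. The causes of these changes were not tested. Cells per sum, equal median depth and 3 pools per label limit what can be seen, and 8 libraries carry the chondrocyte values.

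Of 350 counts of members called in the alternatives, 26 differed from the reported count, in 10 comparisons, and 22 of these stayed within 1.5 times of it. The other 4 were in tenocytes, with 3 in place of 5 for cells under 10% mitochondrial UMIs and at Leiden resolution 0.5, and in cluster 6, with 3 after thinning and 1 without a filter on low counts in place of 0. Changes of sign were as follows on the log2 scale. Adding cluster 12 to the fibroblasts gave Comp in osteoblasts -0.0051, Comp at peak 0.073 and Thbs3 at resolved 0.0027 (labels in fibroblasts unless named). Scaling by total counts alone gave Thbs2 in proliferating cells 0.080, Thbs1 and Thbs3 in cluster 5 -0.062 and -0.14, Thbs3 in cluster 9 0.018, Thbs4 in cluster 13 0.062, Thbs4 at resolved 0.017 and Thbs2 in osteoblasts at peak 0.017. Without upper limits on cells, Thbs2 in proliferating cells was 0.21, Thbs1 and Comp at peak 0.15 and 0.16, and Thbs2 and Thbs3 at resolved 0.033 and 0.030. Under the mitochondrial limit these 5 were 0.19, 0.15, 0.13, 0.025 and 0.048, and Comp at resolving was -0.027. Thbs2 in proliferating cells was 0.19 with the members in the clustering and 0.14 without the library block. At resolution 0.5 Comp at resolving was -0.10, Thbs3 and Thbs4 at resolved 0.017 and 0.0069, and Thbs2 in osteoblasts at peak 0.0067. RLE factors gave Thbs2 in cluster 1 0.0012 and Thbs4 in cluster 13 0.039. Thinning gave Thbs3 in cluster 2 -0.11, Thbs4 in cluster 13 0.20, Thbs3 and Thbs4 at resolved 0.034 and 0.012, and Thbs1 in perivascular cells at resolved -0.21. Without a filter Thbs3 and Thbs4 at resolved were 0.010 and 0.0056, with doublets removed Thbs4 in cluster 13 was 0.27, and Thbs3 at resolved was 0.0045 in a fit of only the libraries of both labels. The run as a block gave Thbs3 at peak -0.045, Thbs4 and Comp at resolving 0.045 and -0.19, Thbs1 at resolved -0.15 and Thbs4 in tenocytes at peak 0.033.

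Replicate numbers were not taken to pair libraries, as the correlations of same-numbered deviations ran from -0.52 to 0.65 over 18 pairs. With the replicate block Thbs3 and Thbs4 at resolved were 0.049 and 0.58, and it changed no call of a member.

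Leaving out 1 library at a time gave -0.12 to 0.057 for Thbs2 in proliferating cells, -0.18 to 0.11 for Thbs2 in cluster 1, -0.31 to 0.14 for Thbs4 in cluster 13 and 0 to 2 members called in cluster 6. At peak it gave Thbs1 -1.51 to 0.21, Thbs3 -0.26 to 0.44, Comp -0.23 to 0.26, and in other classes Comp in chondrocytes -0.28 to 0.069, Thbs2 in osteoblasts -0.10 to 0.030 and Thbs4 in tenocytes -0.44 to 0.13. At resolving the ranges were -1.62 to 0.19 for Thbs2, -1.42 to 0.30 for Thbs4, -0.054 to 0.21 for Comp and -0.35 to 0.010 for Thbs3 in chondrocytes. At resolved they were -0.46 to 0.69 for Thbs1, -1.03 to 0.58 for Thbs2, -0.28 to 0.33 for Thbs3 and -0.72 to 0.66 for Thbs4, with Comp in chondrocytes -0.0045 to 0.25 and Thbs1 in perivascular cells -0.12 to 0.39.

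Counts over all genes moved by more than 1.5 times after thinning, to 2686 from 5032 in chondrocytes, 2499 from 4068 in lymphatic and 3692 from 5692 in vascular endothelial cells, 2894 from 4808 in muscle, 2038 from 3247 in osteoblasts, 2777 from 4224 in perivascular cells, 1648 from 2871 in proliferating cells and 1541 from 2512 in tenocytes. In clusters 1, 2, 9 and 13 thinning left 1126 of 1928, 1155 of 1807, 1033 of 1690 and 579 of 869, and between runs 3670 of 6890. Without the library block clusters 0, 11 and 13 had 982, 1250 and 452 in place of 1616, 1999 and 869, and DESeq2 gave 563 in cluster 13. In the shared clusters 1761 genes differed between runs in place of 6890. The split of higher to lower genes depended on the scaling. In lymphatic endothelial cells it was 1325 to 2743 in the reported fit, 2895 to 1278 with total counts alone and 2230 to 1582 with RLE factors, and the median over all genes moved from -0.32 to 0.27 and 0.076. With total counts alone it was 4048 to 2051 in vascular endothelial cells (reported 2861 to 2831), 2540 to 1636 in perivascular cells (1767 to 2457), 1859 to 1439 in osteoblasts (1414 to 1833), 1644 to 1195 in proliferating cells (981 to 1890), 738 to 3543 in cluster 5 (1296 to 1835), 833 to 741 in cluster 9 (616 to 1074) and 956 to 1125 in cluster 11 (659 to 1340). RLE factors gave 1850 to 1455 in osteoblasts and 2186 to 1964 in perivascular cells.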

Other observations

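Schwann-like cells, which wrap nerve fibres, gave sums in 3 libraries, with 608 ± 483 CPM of Comp (SD, n = 3), and these values entered no comparison.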
